A study of Mus musculus with 6 samples.

Results

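The genes described here encode 7 receptors for glutamate, the main excitatory transmitter of the brain: the AMPA receptor subunits Gria1, Gria2 and Gria4, the NMDA receptor subunits Grin2a and Grin2b, and the metabotropic receptors Grm2 and Grm3. They were taken by symbol from a NanoString panel, and all 7 were among its 770 genes. Whole-brain RNA was measured in 3 wild-type (WT) samples and in 3 samples from mice transgenic for SOD1-G85R, a mutant form of the antioxidant enzyme superoxide dismutase 1 that causes amyotrophic lateral sclerosis in people. All samples carry a C57BL/6 strain background and are labelled day 10. What day 10 is counted from, which promoter drives the transgene and whether each replicate was a separate animal are not in the labels, and the p-values reflect only how these samples vary. Sod1 was not analysed here, and the genotype labels were therefore not checked against the transgene.

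AMPA receptors are tetramers that open within milliseconds of glutamate release and carry most fast excitatory current. NMDA receptors pass calcium when glutamate binds and the membrane is depolarised, and their GluN2 subunits set how long the channel stays open. In the rodent forebrain Grin2b is prominent early and Grin2a is added as synapses mature, so the balance of both transcripts is often read as a sign of maturation. Grm2 and Grm3 encode the group II metabotropic receptors, which couple to inhibitory G proteins. Grm3 is made by astrocytes as well as by neurons.

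NanoString counts colour-coded probes bound to RNA, and the deposited values are called normalized counts below. Each value above a sample's lowest value was a whole number of counts times 1 factor per sample, which allowed the counts behind each value to be read back. Implied totals ranged from 468719 to 1022648 per sample, and the receptor genes rested on 160 to 5047 counts each, a relative counting error of 1.41% to 7.91%. These errors cover counting only. All 7 genes lay at 17.1 times the sample's floor or more. SOD1-G85R replicate 2 was unlike the rest: across genes its log2 values correlated with those of the other samples at 0.824 to 0.834, while these 5 correlated with each other at 0.956 to 0.984. Log2 fold changes are therefore also given without it. Uty, a Y-linked gene, was at 684 and 478 normalized counts in WT replicates 1 and 2 and at 466 in SOD1-G85R replicate 2, and at 11.2 or less in the other 3 samples.

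The genes lie on 6 chromosomes of GRCm38.p6. The AMPA receptor genes are Gria1 at chr11:57011571-57330244, Gria2 at chr3:80681450-80804227 and Gria4 at chr9:4417893-4796234. Grin2a spans chr16:9567901-9996083 and Grin2b chr6:135713221-136173615, while Grm2 is at chr9:106644534-106656109 and Grm3 at chr5:9485236-9725352. Grm2 is the shortest gene at 11.6 kb and Grin2b the longest at 460 kb. The exon or isoform that each NanoString probe binds is not given in the sources used here.

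RefSeq promoter windows, 250 bases before to 50 after a transcript start, were matched for 4 of the 7 genes. Those of Gria2, Grm3 and Grm2 are shown, because Gria2 and Grm3 were closer in their profile across the samples than Grm2 and Grm3, which belong to 1 receptor group (values below). All 3 lie on the minus strand, at chr3:80802786-80803085, chr5:9725303-9725602 and chr9:106656060-106656359, and are written 5′ to 3′. Capitals mark GGGCGG, the GC box bound by Sp1-type factors, and TGCGCA, part of the NRF-1 consensus.
Gria2: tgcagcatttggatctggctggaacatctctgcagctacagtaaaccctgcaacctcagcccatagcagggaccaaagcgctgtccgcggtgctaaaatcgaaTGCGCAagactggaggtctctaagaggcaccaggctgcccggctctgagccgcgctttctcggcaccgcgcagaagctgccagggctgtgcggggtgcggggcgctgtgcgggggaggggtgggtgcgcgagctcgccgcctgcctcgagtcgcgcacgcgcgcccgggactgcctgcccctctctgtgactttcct
Grm3: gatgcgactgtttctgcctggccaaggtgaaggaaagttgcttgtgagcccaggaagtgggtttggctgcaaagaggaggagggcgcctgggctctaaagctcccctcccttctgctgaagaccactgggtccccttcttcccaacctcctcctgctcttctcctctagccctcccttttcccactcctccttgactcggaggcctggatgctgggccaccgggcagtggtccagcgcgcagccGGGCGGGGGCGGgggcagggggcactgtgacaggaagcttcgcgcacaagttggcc
Grm2: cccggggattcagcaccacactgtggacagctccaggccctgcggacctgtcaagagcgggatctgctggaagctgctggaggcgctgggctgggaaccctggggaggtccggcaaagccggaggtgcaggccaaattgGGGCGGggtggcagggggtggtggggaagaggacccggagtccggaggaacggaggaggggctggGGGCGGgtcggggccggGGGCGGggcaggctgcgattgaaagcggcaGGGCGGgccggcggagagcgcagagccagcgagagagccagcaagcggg
Searched on both strands, GGGCGG occurred 4 times in the Grm2 window, 2 times side by side in that of Grm3 and 0 times in that of Gria2. Of 32851 mouse promoter windows of this length, 35.7% hold GGGCGG and 7.76% hold TGCGCA, which occurred 1 time in the Gria2 window and in neither of the others. A match is only a description of these letters, and no binding was measured.

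With limma, 0% of the 712 genes tested passed an adjusted p of 0.05, and 16.3% had an unadjusted p under 0.05. The share lower in SOD1-G85R at that unadjusted p was 4.63%. All 7 receptor genes passed the filter on low values. As deposited all 7 had a negative log2 fold change, beside 37.4% of all genes tested; 6 did so without SOD1-G85R replicate 2, beside 49.3%, and 4 once each sample was centred on pan-neuronal genes, beside 13.1%. All 7 did so after quantile normalization, beside 59.7%. Their median log2 fold change was -0.36, beside 0.15 for all genes, a distance of -0.50, which quantile normalization made -0.21. At the unadjusted threshold 1 of the 7, Grin2a, was lower and 0 were higher, and none had an adjusted p below 0.188. Every SOD1-G85R sample lay below every WT sample for 2 of the 7, Grin2a and Gria1, beside 9.97% of all genes and 27% when either direction is counted. Whole-brain RNA cannot tell fewer receptor-bearing cells apart from less receptor RNA per cell.

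**Figure D1:**
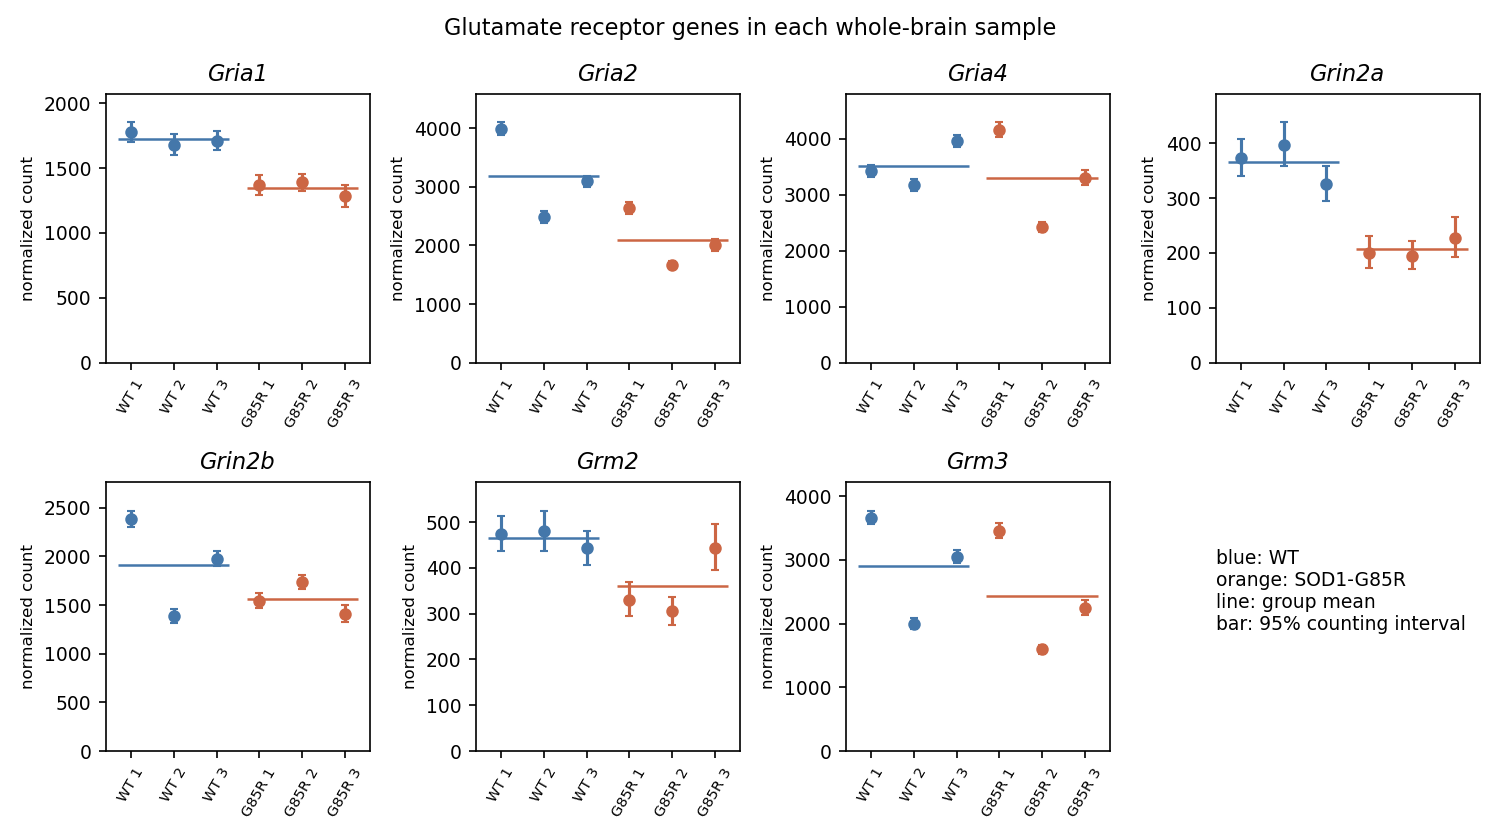
Normalized counts of the 7 receptor genes (vertical axes, from 0) in each sample, with group means as lines and 95% counting intervals as bars. Grin2a and Gria1 separate the genotypes, while Gria4, Grin2b and Grm3 overlap widely.

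Grin2a, the GluN2A subunit of maturing synapses, stood at 373, 397 and 326 normalized counts across WT replicates 1 to 3 and at 200.3, 195 and 227 across SOD1-G85R replicates 1 to 3, the order used below. The groups were apart by 98.7 counts, a gap wider than the range within either genotype. The means were 365 ± 36.2 and 208 ± 17.3 (SD, n = 3 each), so that SOD1-G85R brain held 56.8% of the WT level. The log2 fold change was -0.81 (SE 0.18, 95% interval -1.26 to -0.36), which limma ranked 16th by p among 712 genes (unadjusted p = 0.00422, adjusted p = 0.188). Without SOD1-G85R replicate 2 it was -0.77 by limma (adjusted p = 0.117).

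Grin2b, the GluN2B subunit of young synapses, was at 2383, 1385 and 1974 normalized counts across the WT samples and at 1545, 1737 and 1409 across the SOD1-G85R samples. WT replicate 2 was the lowest of the 6 samples and WT replicate 1 the highest, so the SOD1-G85R samples lay wholly inside the WT range. The log2 fold change was -0.26 (SE 0.26, 95% interval -0.88 to 0.36), and limma gave an adjusted p of 0.64. Without WT replicate 2 it was -0.48, and without WT replicate 1 it was -0.09, so that 1 WT sample moved it either way. Without SOD1-G85R replicate 2 it was -0.34.

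The ratio of Grin2a to Grin2b within a sample does not depend on that sample's scaling, although its absolute value also depends on how well each probe binds. The WT samples gave 0.156, 0.287 and 0.165, and the SOD1-G85R samples gave 0.13, 0.112 and 0.161. Only SOD1-G85R replicate 3, at 0.161, reached into the WT range. On the log2 scale the ratio averaged -2.36 ± 0.48 for WT and -2.91 ± 0.26 for SOD1-G85R (SD), a difference of -0.55 (exact permutation test, two-sided, p = 0.2, where 0.1 is the smallest that 3 against 3 allows). The spread in WT came from replicate 2, and without that sample the difference was -0.27 (exact permutation test, p = 0.3). Without WT replicate 1 it was -0.71, and after quantile normalization -0.88 (exact permutation test, p = 0.1 for each). Leaving out each of the other replicates gave an exact permutation p of 0.2 to 0.5. As deposited the genotypes overlapped, and the size of the difference moved with the replicate left out. A test that cannot go below 0.1 does not settle whether the difference exceeds the spread between replicates.

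**Figure D2:**
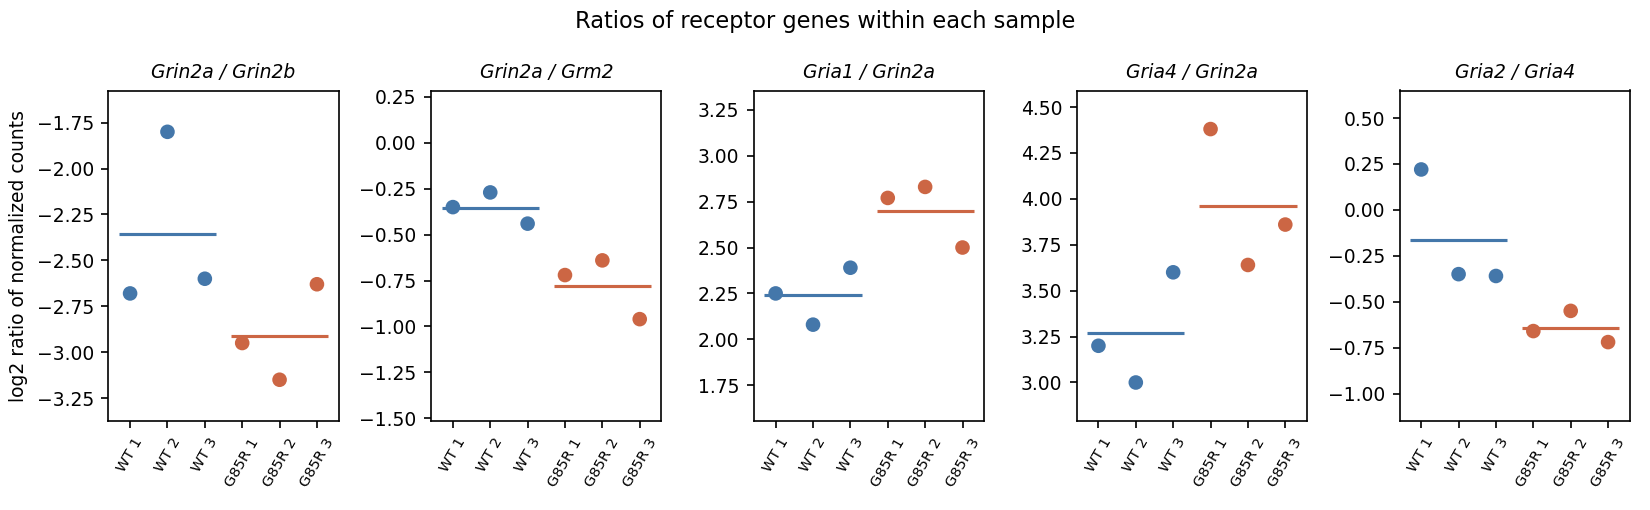
Log2 ratio of normalized counts (vertical axes, equal span in each panel) for 5 pairs of receptor genes in each sample, with group means as lines. Grin2a over Grin2b overlaps between genotypes, with WT replicate 2 at -1.80, whereas the other 4 pairs do not overlap.

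Among the AMPA receptor genes, Gria1 was the steadiest. This gene for GluA1, a subunit of activity-dependent receptor insertion, was at 1778, 1681 and 1712 normalized counts across WT samples, against 1370, 1389 and 1281 across SOD1-G85R samples. The genotypes were 292 counts apart, while the samples within each differed from lowest to highest by 1.06-fold (WT) and 1.08-fold (SOD1-G85R). The means were 1724 ± 49.4 and 1347 ± 57.7, or 78.1% of WT (log2 fold change -0.36, SE 0.17). limma moderates each gene's variance towards that of the panel and gave an unadjusted p of 0.0752 and an adjusted p of 0.372. Without SOD1-G85R replicate 2 the log2 fold change was -0.38.

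Gria2 encodes GluA2, the subunit whose edited form makes AMPA receptors nearly impermeable to calcium. The WT samples held 3992, 2488 and 3095 normalized counts of it, and the SOD1-G85R samples 2634, 1660 and 2011. The ranges overlapped only between WT replicate 2 and SOD1-G85R replicate 1. The means were 3192 ± 757 and 2102 ± 493, a log2 fold change of -0.60 (SE 0.28, limma, unadjusted p = 0.0694, adjusted p = 0.361). It was -0.45 without SOD1-G85R replicate 2 and -0.43 without WT replicate 1.

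Gria4 encodes GluA4, a subunit of rapid receptors. Its WT values were 3425, 3175 and 3961 normalized counts. Its SOD1-G85R values were 4165, 2426 and 3302, which include both the highest and the lowest of all 6 samples. The log2 fold change was -0.12 (95% interval -0.74 to 0.50, limma, adjusted p = 0.828). Its direction depended on SOD1-G85R replicate 2, and it was 0.08 without that sample.

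The group II metabotropic genes differed from each other. Grm2, a presynaptic receptor of neurons, had WT values of 475, 480 and 443 normalized counts and SOD1-G85R values of 330, 305 and 443. SOD1-G85R replicates 1 and 2 lay below all WT samples, and replicate 3 passed the lowest WT sample by 0.51 counts. The log2 fold change was -0.39 (SE 0.21, 95% interval -0.90 to 0.12, limma, adjusted p = 0.433), and -0.28 without SOD1-G85R replicate 2.

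Grm3 was the most variable of the 7, with 3665, 2002 and 3051 normalized counts across the WT samples and 3459, 1598 and 2251 across the SOD1-G85R samples. The coefficient of variation was 28.9% among WT samples and 38.8% among SOD1-G85R samples. The genotypes overlapped over most of their range, and the log2 fold change was -0.28 (95% interval -1.18 to 0.61, limma, adjusted p = 0.732). Without SOD1-G85R replicate 2 it was -0.01, and without WT replicate 1 it was -0.09.

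**Figure D3:**
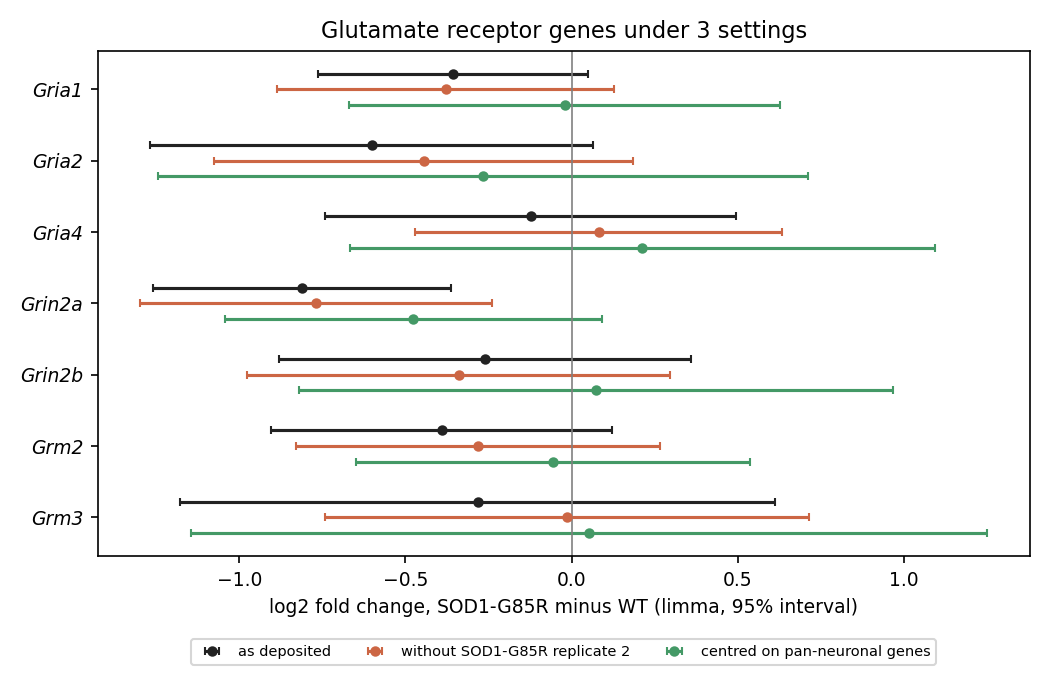
Log2 fold change of each receptor gene (SOD1-G85R minus WT, horizontal axis) with limma's 95% interval, as deposited, without SOD1-G85R replicate 2, and after centring each sample on pan-neuronal genes. The Grin2a interval lies below 0 in the first pair of settings and reaches 0.09 in the last, and every other interval includes 0.

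The remaining ratios set the receptor genes against each other. Over all 21 pairs the genotypes did not overlap in 4, each with an exact permutation p of 0.1, the smallest possible, and a Benjamini-Hochberg value of 0.525 over the 21. Grin2a, which did not overlap between genotypes by itself, was in 3 of these 4, and pairs that share a gene are not independent. Grin2a over Grm2 was 0.785, 0.828 and 0.736 across the WT samples, against 0.606, 0.64 and 0.513 across the SOD1-G85R samples, a log2 difference of -0.42 that stayed between -0.49 and -0.33 when each sample was left out. Gria1 over Grin2a was higher in SOD1-G85R by 0.46 and Gria4 over Grin2a by 0.69 on the log2 scale. Grin2a was thus lower relative to 3 of the other 6 receptor genes in all SOD1-G85R samples. Its ratios to Gria2, Grin2b and Grm3 overlapped between genotypes. On average Grin2a over Grin2b and over Grm3 still differed by -0.55 and -0.53 on the log2 scale, and Gria2 over Grin2a by 0.21.

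The fourth pair lay within the AMPA family. Gria2 over Gria4 took WT values of 1.17, 0.784 and 0.782 and SOD1-G85R values of 0.632, 0.684 and 0.609, a log2 difference of -0.48. WT replicate 1 stood above the other WT samples, and without it the difference was -0.29, with the groups still apart. Gria1 over Gria2, by contrast, differed by 0.25 with a pooled SD of 0.32.

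**Figure D4:**
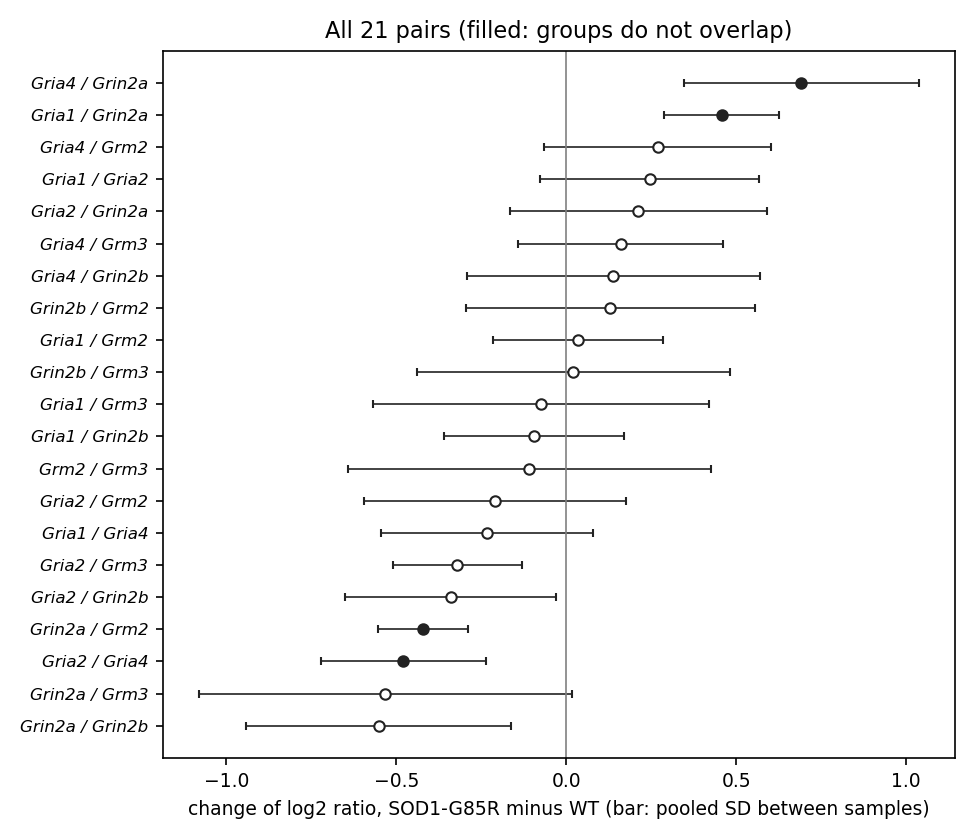
Change of the log2 ratio between genotypes (SOD1-G85R minus WT, horizontal axis) for all 21 pairs of receptor genes, with the pooled SD between samples as bars. Filled points mark the 4 pairs whose groups do not overlap, of which 3 include Grin2a.

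Across the 6 samples the receptor genes did not share 1 profile. Likeness was measured as the root mean square difference of log2 values, each gene set against its own mean. Gria1 and Grm2 were the closest pair at 0.205 and Grin2a and Grm3 the farthest at 0.52. Gria2 and Grm3 differed by 0.223, both with their highest value in WT replicate 1 and their lowest in SOD1-G85R replicate 2, whereas Grm2 and Grm3 differed by 0.439. Grin2a and Grin2b, subunits of the same receptor class, differed by 0.42.

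Of the other 711 genes tested, those nearest to Grin2a were Gpr62, an orphan G protein-coupled receptor gene, at 0.13, Nefl, the neurofilament light chain gene, at 0.131, and Slc17a7, the vesicular glutamate transporter VGLUT1, at 0.137. Nearest to Grin2b were Ptgs2, which encodes cyclooxygenase 2, at 0.121, Atp6v1a, a subunit of the vacuolar proton pump, at 0.144, and Amigo2, a cell adhesion gene, at 0.155. The lists share no gene. All of these distances rest on the same 6 samples and include the genotype difference itself.

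Genes that work beside the receptors at the glutamatergic synapse were read from a list of 42, of which 10 were on the panel. At an unadjusted p of 0.05 by limma 5 were lower and 0 higher, against 4.63% lower over the panel, and 0 passed the adjusted threshold. Their median log2 fold change was -0.48. The scaffold gene Dlg1 had 1225, 1051 and 912 normalized counts across WT samples, against 614, 556 and 540 across SOD1-G85R samples (log2 fold change -0.89, limma, adjusted p = 0.17). Slc17a7 had a log2 fold change of -0.84 (adjusted p = 0.223). Ppp3ca, a catalytic subunit of calcineurin, averaged 11650 ± 1359 and 7828 ± 598 (log2 fold change -0.57, adjusted p = 0.235). Over all 10, every SOD1-G85R sample lay below every WT sample in 6, beside 9.97% of all genes tested. The list median was -0.49 without SOD1-G85R replicate 2.

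Markers of neurons were read beside the receptor genes. The 7 measured pan-neuronal genes summed to 32570 to 38590 normalized counts per WT sample and to 24610 to 32430 per SOD1-G85R sample, none of them at the floor. Their median log2 fold change was -0.45 (-0.48 without SOD1-G85R replicate 2), with 5 negative and 2 positive. The positive ones were Rbfox3 at 0.06 and Tubb3 at 0.14, and the median gene was Tubb4a. The negative ones ran from Syp at -0.27 to Nrgn at -0.70. Which cells made the RNA of the listed genes was not measured. At the unadjusted threshold 2 of the 7 were lower, beside 4.63% of the panel, and 0 passed the adjusted one. With each sample centred on these genes, a setting added after the data were seen, the receptor median was -0.02 and 4 of the 7 stayed below 0. Grin2a was then at -0.48 (limma, unadjusted p = 0.0879), Gria2 at -0.27 and Gria1 at -0.02, and Gria4, Grin2b and Grm3 turned to 0.21, 0.07 and 0.05.

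The receptor genes did not follow the samples in the same order as the neuronal list. Set against the WT mean, SOD1-G85R replicates 1 to 3 had receptor medians of -0.27, -0.61 and -0.41, where their pan-neuronal medians were -0.64, -0.20 and -0.12. Their glutamatergic synapse medians were -0.42, -0.61 and -0.43, in the same order as the receptor medians. Of 9 oligodendrocyte markers 8 were lower at the unadjusted threshold by limma, beside 4.63% of the panel, and 0 passed the adjusted one. Their median log2 fold change was -1.01 (-1.19 without SOD1-G85R replicate 2), and they were lowest in SOD1-G85R replicate 1. The pan-neuronal list was lowest in that sample too, and WT replicate 1 was the lowest WT sample for both lists. The 5 astrocyte markers summed to 13060 to 20760 per WT sample and to 15200 to 15920 per SOD1-G85R sample. SOD1-G85R replicate 2, the sample in which Gria2, Gria4, Grin2a, Grm2 and Grm3 were lowest, was also highest in several other lists. Its 7 microglial markers summed to 9870, beside 2262 to 3957 in the other samples, and 5984 of this was C1qa, a complement gene. Without C1qa the sum was 3886, beside 1753 to 3098. P2ry12, a receptor of resting microglia, was lowest there at 302. Cx3cr1, Tmem119, Csf1r, Trem2 and Itgam were highest there, with Cx3cr1 at 887 and Tmem119 at 514. In SOD1-G85R replicate 2 the 9 interferon response genes summed to 32180, beside 1098 to 1712. The 6 endothelial markers summed there to 3755, beside 1994 to 2494. Without this sample the median log2 fold change was -0.46 for the microglial markers, from -0.002 with it, and -0.16 for the endothelial ones, from 0.17. The part of this in the receptor values was not tested.

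**Figure D5:**
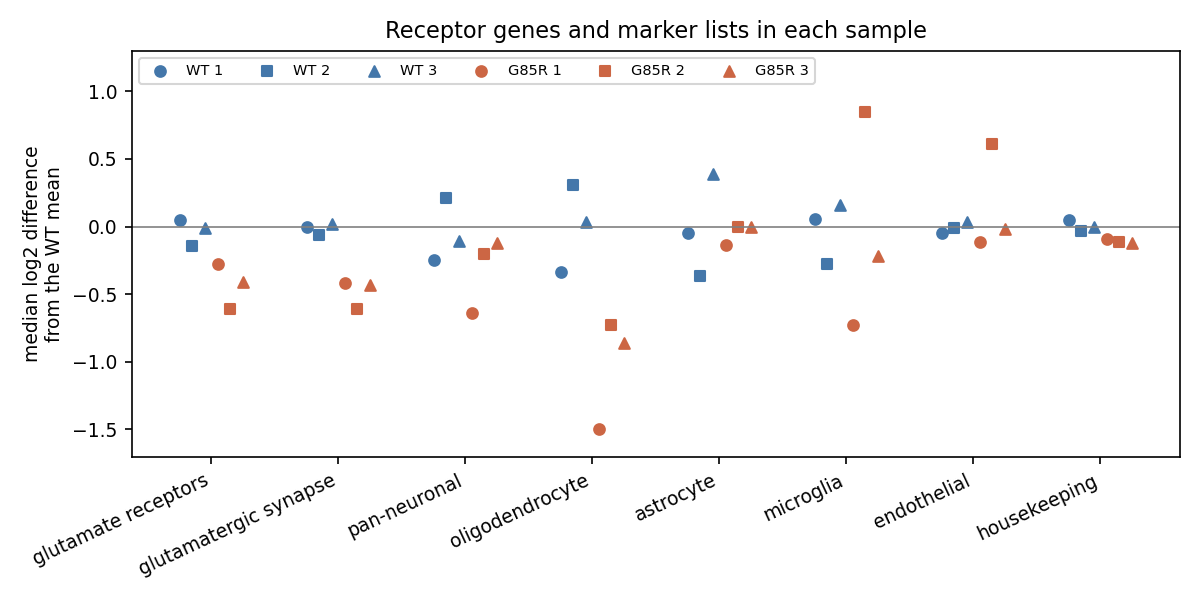
Median log2 difference from the WT mean (vertical axis) of the 7 receptor genes and of 7 gene lists in each sample (blue WT, orange SOD1-G85R, marker shape by replicate number). The SOD1-G85R receptor medians lie between -0.61 and -0.27 and the glutamatergic synapse medians between -0.61 and -0.42, both below all WT samples. The pan-neuronal medians overlap with WT.

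Because Uty signal was carried by 2 WT samples and 1 SOD1-G85R sample, the receptor genes were also compared within the samples with and without it. Grin2a differed by -0.98 on the log2 scale among the 3 samples with Uty signal and by -0.61 among the 3 without. Gria1 differed by -0.32 and -0.37, and Gria2 by -0.92 and -0.43. In the same order of classes, Gria4 differed by -0.44 and -0.10, Grin2b by -0.06 and -0.42, Grm2 by -0.64 and -0.21 and Grm3 by -0.76 and -0.13. Each class holds a genotype with 1 sample, so these are values with no test. With a term for Uty signal the log2 fold change of Grin2a was -0.79 (limma, adjusted p = 0.206).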

How the data were processed

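The authors deposited 1 signal value per gene and sample for 770 genes. The labels name NanoString and whole-brain RNA extracted after bead homogenisation and proteinase K digestion; the sources used here name no software, reference genes or background rule. In every sample all deposited values above the lowest were whole multiples of 1 step (0.791 to 1.42) within 0.01 count. The lowest, shared by 10 to 59 genes, was read as a floor, so count tests were not used.

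Samples were grouped by the genotype label. Values were taken as log2(value + 1), and genes above 20 in at least 3 of 6 samples were fitted across the panel with limma 3.58.1 in R 4.3.3 (lmFit, eBayes, two-sided, Benjamini-Hochberg over 712 genes). The 21 ratios used exact permutation tests over samples, on log2 values without a pseudocount. Counting intervals are exact Poisson intervals at 95% on the implied counts. The fit was tested on simulated data. Named genes were the 7 receptors, the 3 smallest p of the synapse list, the 3 nearest profiles to Grin2a and to Grin2b, list markers and Uty. The members, lists and tests were chosen with earlier results of these data known. Names, positions and promoters are from RefSeq on GRCm38.p6. Figures were drawn with matplotlib 3.10.9.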

Additional observations from a re-analysis of the deposited data

How the results depend on the processing

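Log2 fold changes were recomputed under 17 alternatives: other scalings, filters, pseudocounts and variance models, a term for Uty signal, the replicate number as a block, and each replicate left out. Grin2a, Gria1, Gria2 and Grm2 were negative in all 17, and no receptor gene reached an adjusted p of 0.05 in any. The filters, the variance model and the replicate block leave each log2 fold change as it is, so they bear only on the p-values. Grin2a ranged from -1.09 after quantile normalization to -0.48 with samples centred on pan-neuronal genes, and had an unadjusted p under 0.05 by limma in 16 of 17. Gria4 ranged from -0.308 to 0.081 when each replicate was left out, positive only without SOD1-G85R replicate 2, and Gria4, Grin2b and Grm3 turned to 0.212, 0.074 and 0.053 with pan-neuronal centring. The cause was not tested. At an unadjusted p of 0.05 by limma, a trended robust variance gave 3 receptor genes, Grin2a, Gria1 and Gria2, all lower. The panel share was then 16.4%, with 43 of 712 genes lower. Pan-neuronal centring gave 0 receptor genes, beside 24.3% of the panel. Leaving out each replicate gave 1 to 2, beside 8.99% to 20.9% of the panel. Gria2 joined Grin2a without WT replicate 2 or SOD1-G85R replicate 1. Centring samples on their medians put the receptor median at -0.56, and it was -0.021 with pan-neuronal centring and -0.48 to -0.32 when each replicate was left out. Panel genes at an adjusted p of 0.05 numbered 41 with pan-neuronal centring and 0 to 10 when each replicate was left out, the 10 without SOD1-G85R replicate 2. At an unadjusted p of 0.05 the panel had 57 genes after quantile normalization and 63 with a filter at 50, beside 116 as deposited, of which 33 were lower. After quantile normalization 36 of the 57 were lower, with centring on housekeeping genes 20 of 115. The Grin2a to Grin2b difference was -0.88 after quantile normalization and -0.71 to -0.27 when each replicate was left out.

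Same-numbered samples deviated together by 0.231, 0.088 and 0.1, and not every sample correlated best with its own number, so the numbers were not taken as pairs. The receptor genes differed in this. The replicate block lowered the SE of Gria2 from 0.28 to 0.13 and that of Grm3 from 0.37 to 0.15. For Grin2b it went from 0.256 to 0.253. With the replicate block 2 receptor genes, Grin2a and Gria2, had an unadjusted p under 0.05, beside 22.8% of the panel (162 of 712 genes, 55 of them lower), and the Grin2a to Grin2b difference had an exact p of 0.25 by paired sign flips.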

Other observations

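Read by rank within each sample instead of by deposited value, Grin2a lay above 64.2%, 63.8% and 58.1% of the panel across WT replicates 1 to 3 and above 53.5%, 33.8% and 51.2% across SOD1-G85R replicates 1 to 3. Grm2 lay above 69.2%, 67.0% and 65.1% across the WT samples and above 63.1%, 47.5% and 66.4% across the SOD1-G85R samples. SOD1-G85R replicate 2, where both ranks were lowest, had a panel median of 332 normalized counts, against 173 to 212 in the other 5 samples. In that sample the deposited counts of Grin2a and of Gria1, 195 and 1389, were close to those of SOD1-G85R replicate 1, 200.3 and 1370.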
